A study of Mus musculus with 40 samples.

Results

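The liver transcripts of 4 genes, Ly6d, Scara3, Wnk2 and Mtcl1, are described here across sham-operated mice, mice with small bowel resection (SBR) given vehicle, and SBR mice given WUSTL0717, out of 15958 genes in the deposited expression table. The genes were chosen by their liver values in these same libraries: Ly6d and Scara3 because they were higher after SBR, and Wnk2 and Mtcl1 because they were lower with WUSTL0717. Those 2 pairs of values are therefore given as descriptions, with no test. All animals were male wild-type C57BL/6 mice operated on at 8 weeks of age, with either sham surgery or removal of 50 to 60% of the small bowel according to the sample labels; the study's methods give a larger share. Dosing began 3 weeks after surgery and went on daily for 7 weeks, with vehicle or with 30 mg/kg WUSTL0717, and all sham mice received vehicle, so no group shows the compound without resection. Liver RNA came from 5 sham mice, 8 SBR mice on vehicle and 5 SBR mice on WUSTL0717, while duodenum and ileum each had 3, 4 and 4 mice of the same arms, 40 libraries in all. WUSTL0717 is an agonist of the liver X receptors (LXRs), nuclear receptors of sterol metabolism, and is described by the study as gut-restricted. The values are log2 TPM, transcript abundances scaled for transcript length and for library total, after a batch correction by the authors, in which all intestinal libraries formed batch 1 and all liver libraries batch 2, so a liver level cannot be set against an intestinal one. The correction also rescales each gene, so levels are not compared between genes. Differences, folds and ranks by size describe the corrected values and are approximate as differences in TPM.

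Each of the 4 encoded proteins belongs to a different family. Ly6d is a small surface protein held by a lipid anchor, of the Ly6 family with its three-finger fold, and is known as a marker of stratified epithelia and of early B cell progenitors. Scara3 is a class A scavenger receptor-like membrane protein known for protecting cells from oxidative stress. Wnk2 is a kinase of the WNK ("with no lysine") family, whose members act through the kinases Stk39 and Oxsr1 on cation-chloride cotransporters, and Mtcl1 crosslinks and stabilizes microtubules in polarized epithelial cells, where it binds the polarity kinase Mark2. In the injured liver, duct-forming epithelial cells (cholangiocytes) and fibroblasts expand beside the hepatocytes, so a bulk liver sample can change in its mix of cells as well as in its transcripts per cell.

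In the GRCm38 annotation (GENCODE M21), all 4 genes are protein-coding and lie on the minus strand: Ly6d at chr15:74762056-74763620, Scara3 at chr14:65919394-65953935, Wnk2 at chr13:49036303-49148014 and Mtcl1 at chr17:66336982-66449750. Ly6d is the most compact, with 3 exons in its coding transcript, against 6 for Scara3, 29 for Wnk2 and 15 for Mtcl1 in the longest coding transcript. Of the 4, Mtcl1 alone has another gene inside its bounds in this annotation, the processed pseudogene Gm4705 on the same strand. Promoter sequences were at hand for Wnk2 and Mtcl1, the pair chosen on the WUSTL0717 contrast, and the 250 bases before their RefSeq starts (GRCm38.p6, minus strand, chr13:49148329-49148578 and chr17:66449751-66450000) are shown to compare what precedes them, with capitals for the motifs found and all other bases in lower case. The Wnk2 window lies upstream of the GENCODE gene bounds, and that of Mtcl1 ends beside them.
Wnk2: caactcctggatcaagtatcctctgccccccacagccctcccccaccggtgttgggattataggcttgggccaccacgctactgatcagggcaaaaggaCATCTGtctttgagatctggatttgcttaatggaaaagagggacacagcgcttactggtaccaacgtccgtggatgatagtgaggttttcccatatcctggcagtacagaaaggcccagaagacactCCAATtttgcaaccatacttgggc
Mtcl1: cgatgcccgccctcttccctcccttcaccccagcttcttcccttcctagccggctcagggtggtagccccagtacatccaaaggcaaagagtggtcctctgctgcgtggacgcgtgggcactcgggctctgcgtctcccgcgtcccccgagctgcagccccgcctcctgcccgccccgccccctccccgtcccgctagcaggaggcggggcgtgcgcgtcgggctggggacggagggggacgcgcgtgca

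Both strands were searched for the TATA box (TATAAA), the CCAAT box (CCAAT), the E-box (CANNTG), the AP-1 motif (TGANTCA), the nuclear receptor hexamer (AGGTCA), a pair of these hexamers in the same direction with 4 bases between them (DR4, the LXR type), and the TEAD motif (GGAATG). The Wnk2 window held 1 E-box and 1 CCAAT box, which occur in 66.0% and 34.5% of 27025 promoter windows of this length, and none of the others. The Mtcl1 window held none of the 7. The TATA box, AP-1 motif, hexamer, DR4 and TEAD motif were found in 13%, 6.87%, 13.8%, 0.0111% and 12.6% of windows. The windows shared little in composition: GC content was 51.6% with 5 CG dinucleotides for Wnk2, close to the medians of 52% and 6, and 72.4% with 25 for Mtcl1, where 93.9% of windows had a lower GC content. No sequence is shown for Ly6d and Scara3.

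Before the member values, 3 liver libraries need naming. SBR vehicle replicate 7 held pancreatic transcripts, with the summed level of 4 pancreas markers (Cela1, Cpa1, Pnlip and Ctrb1) at 2694 TPM against 19.3 to 33.7 TPM in the other 17 liver libraries. Over the 15892 other genes tested, the line from the sham mean to the SBR vehicle mean placed SBR WUSTL0717 replicate 4 at 104% of the way, against 48.3% to 72.1% for the other 4 treated libraries, and SBR vehicle replicate 2 at 64.6%, the lowest of its group. The labelled tissue could not be checked by hepatocyte markers: after the batch correction, 10 of them summed to 11547 to 27741 TPM in liver libraries but to 6787 to 76384 TPM in ileal ones. Summed TPM are back-transformed from corrected values, so they are approximate and are compared only between groups of 1 tissue. Libraries of the same group correlated across genes with r of 0.964 to 0.985 in liver, 0.808 to 0.909 in duodenum and 0.854 to 0.928 in ileum. The sources used here give no read totals, so the depth is unknown, and replicates are taken as separate mice as their labels number them.

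In liver, Ly6d went from a low to a high level after SBR. The 5 sham libraries read 1.56, 1.29, 1.93, 2.88 and 1.97 log2 TPM, and the 8 SBR vehicle libraries ran from 7.05 to 8.19 with a median of 7.83. Every SBR library lay above every sham library, with a gap of more than the whole range of either group. The means were 1.93 ± 0.60 (SD, n = 5) and 7.76 ± 0.33 (SD, n = 8), a difference of 5.84 ± 0.34 (SE) log2 units, or 57.2-fold on the TPM + 1 scale. This was rank 1 by size among 15896 genes tested, by a value that the choice of the gene used. Fold and rank are those of the batch-corrected values. Across all genes the median difference was 0.25, and 15.6% of genes had every SBR library above every sham library.

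Scara3 was likewise lowest in sham livers. Its sham libraries read 1.07, 0.80, 0.99, 1.40 and 1.37, and its SBR vehicle libraries ran from 3.81 to 4.57 with a median of 4.43. The groups did not overlap. The difference of the means, 1.12 ± 0.26 (SD, n = 5) and 4.28 ± 0.32 (SD, n = 8), was 3.16 ± 0.21 (SE), rank 13 by size and 8.94-fold on the TPM + 1 scale.

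Wnk2 and Mtcl1 were not selected on the SBR contrast, but it shares the SBR vehicle libraries with the contrast that chose them. High values there helped to choose both genes, which favours a rise after SBR. In this test, which is not free of the choice, both rose. Wnk2 read 1.94, 1.90, 2.03, 1.93 and 2.15 in sham libraries and 3.66 to 4.40, with a median of 4.00, in SBR vehicle libraries. Mtcl1 read 0.83, 0.78, 0.88, 0.78 and 1.00 in sham libraries and 2.14 to 2.79, with a median of 2.50, in SBR vehicle libraries. Neither gene had an SBR library within the sham range, and the sham libraries of both lay close together. Wnk2 rose by 2.04 ± 0.16 (SE; limma adjusted p = 2.56e-08), and Mtcl1 rose by 1.61 ± 0.11 (SE; limma adjusted p = 1.07e-08), higher in 8 of 8 SBR libraries. These are 2 of 2 members tested, in a comparison where limma called 41.9% of all genes and 37.5% as higher. The share of higher genes depends on scaling: 5954 were called higher and 712 lower, but 3248 and 4573 with libraries centred on their median, which moves the all-gene median from 0.25 to -0.06. Relative to the all-gene median, the differences were 5.59 for Ly6d, 2.92 for Scara3, 1.79 for Wnk2 and 1.37 for Mtcl1.

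With WUSTL0717, Wnk2 and Mtcl1, the pair chosen on this contrast, lay between the other groups. The 5 treated libraries read 2.78, 2.78, 2.46, 3.55 and 2.70 for Wnk2, with a mean of 2.85 ± 0.41 (SD, n = 5). They read 1.56, 1.52, 1.52, 1.98 and 1.67 for Mtcl1, with a mean of 1.65 ± 0.19 (SD, n = 5). All 5 lay below every SBR vehicle library and above every sham library for both genes, and replicate 4 was the highest in each. The difference from SBR vehicle was -1.18 ± 0.16 (SE) for Wnk2 and -0.82 ± 0.11 (SE) for Mtcl1. For scale, 4.12% of all genes were called in this contrast, 2.67% as lower (231 higher and 424 lower, but 1824 and 1303 with centred libraries), and 0.308% had every treated library below every vehicle library.

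Scara3 was not chosen on the WUSTL0717 contrast, but that contrast shares the SBR vehicle libraries whose high values chose Scara3 and Ly6d, which favours a lower value with treatment. In this test, which is not free of the choice, Scara3 fell. Its treated libraries read 2.87, 2.88, 2.63, 4.11 and 2.97, with a mean of 3.09 ± 0.58 (SD, n = 5). Replicates 1, 2, 3 and 5 lay below the lowest SBR vehicle library, and replicate 4 lay within that group. The difference was -1.19 ± 0.21 (SE; limma adjusted p = 0.00691), and -1.45 ± 0.16 (SE; limma adjusted p = 0.0001) without replicate 4. An unmoderated two-sample test, which called 0 genes in this contrast where limma called 655 and 2735 had an unadjusted limma p under 0.05, gave Scara3 an adjusted p of 0.0982.

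Ly6d spread widely under treatment. The treated libraries read 7.24, 5.75, 5.76, 7.96 and 7.50, with a mean of 6.84 ± 1.02 (SD, n = 5). Replicates 2 and 3 lay below all SBR vehicle libraries, and the other 3 lay among them. The difference of -0.92 ± 0.34 (SE) did not pass the test (limma adjusted p = 0.14), and it did without replicate 4, at -1.20 ± 0.32 (SE; limma adjusted p = 0.0314). Centring libraries on their median also brought it past the threshold, at -0.92 (limma adjusted p = 0.0389), as did quantile normalization at -1.01 and library weights at -0.86.

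**Figure D1:**
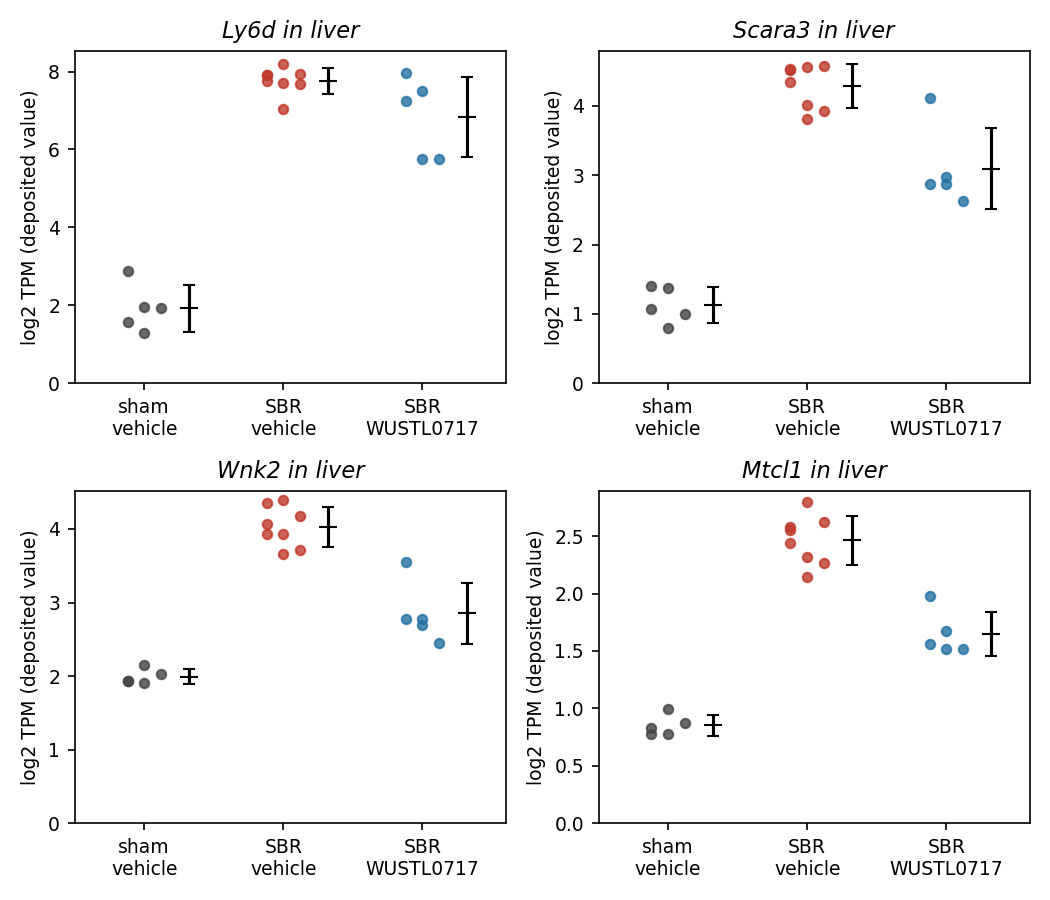
Liver log2 TPM of Ly6d, Scara3, Wnk2 and Mtcl1, 1 panel per gene with its own vertical axis from 0. Points are libraries (5 sham, 8 SBR on vehicle, 5 SBR on WUSTL0717) and bars are the mean ± SD. All 4 genes are lowest in sham livers, and the treated libraries of Wnk2 and Mtcl1 lie between the other groups without overlap.

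Against sham, the treated livers remained higher for every member. Ly6d was higher by 4.91 ± 0.37 (SE; limma adjusted p = 1.88e-07) and Scara3 by 1.97 ± 0.23 (SE; limma adjusted p = 2.2e-05). Wnk2 was higher by 0.86 ± 0.18 (SE; limma adjusted p = 0.00201) and Mtcl1 by 0.80 ± 0.13 (SE; limma adjusted p = 0.000309). In each case all 5 treated libraries lay above all 5 sham libraries, as they did for 27.4% of all genes, and limma called 28.7% of genes, 27.8% as higher (4417 higher and 144 lower, but 1701 and 1420 with centred libraries). This comparison shares its libraries with both that chose the genes, so its tests are not free of the choice. Low sham values helped to choose Ly6d and Scara3, which favours a higher treated value against sham. Low treated values helped to choose Wnk2 and Mtcl1, which favours the reverse.

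The members differed in how much of the SBR difference was left with WUSTL0717, on the log2 scale and with no test because the choice used those values. The choice favours a large share left for the pair taken on SBR and a small one for the pair taken on WUSTL0717. The treated mean stood at 84.2% of the way from the sham mean to the SBR vehicle mean for Ly6d, 62.2% for Scara3, 49.4% for Mtcl1 and 42.3% for Wnk2. Leaving out treated replicate 4 gave 79.4%, 54.2%, 44.4% and 33.8% in the same order of genes. Without SBR vehicle replicate 7, the library with pancreatic transcripts, the WUSTL0717 differences were -0.93, -1.16, -1.13 and -0.82 for Ly6d, Scara3, Wnk2 and Mtcl1, and the SBR differences were 5.84, 3.13, 1.99 and 1.62.

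**Figure D2:**
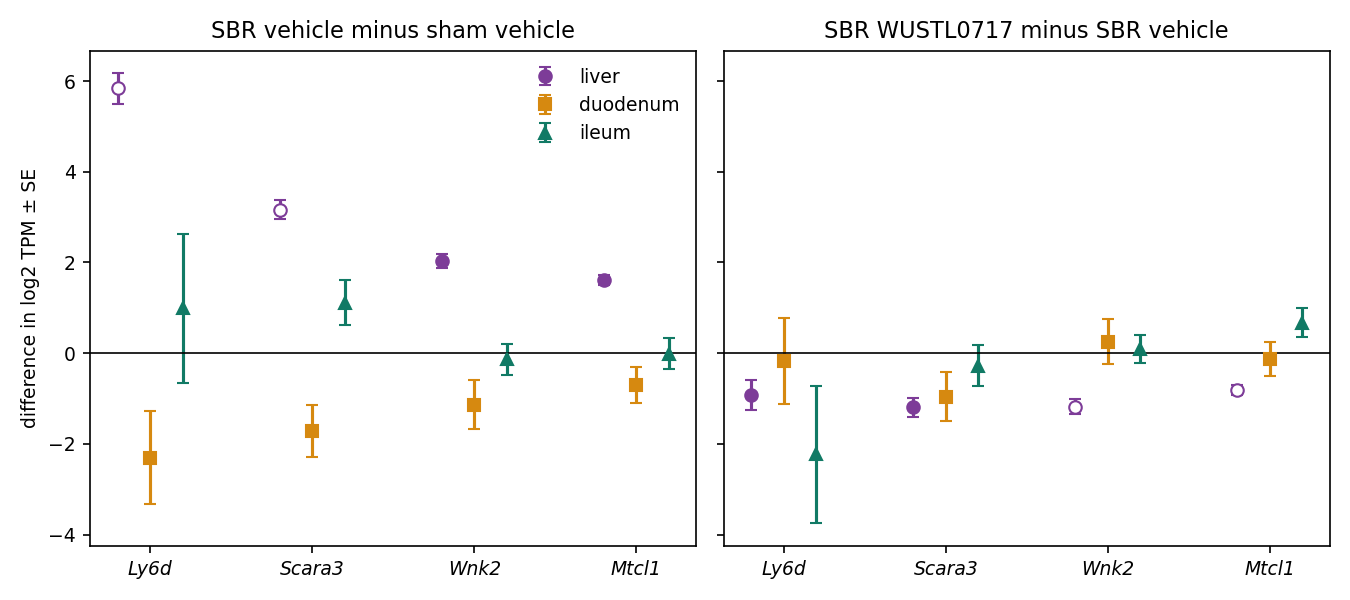
Difference in log2 TPM ± SE for each gene, with SBR vehicle minus sham vehicle on the left and SBR WUSTL0717 minus SBR vehicle on the right. Circles are liver, squares duodenum and triangles ileum; open symbols mark the values that the choice of genes used. In liver the 4 differences after SBR run from 1.61 to 5.84 and those with WUSTL0717 from -1.19 to -0.82, while the duodenal SBR values, none of them called, lie below 0.

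Genes with a liver pattern like that of each member were looked for by Pearson r over the 18 liver libraries. The libraries share 3 groups, which enter such r values, so values after removing group means are given too, and none has a p. Wnk2 and Mtcl1, both chosen for the same WUSTL0717 difference, gave r = 0.98 (0.84 with group means removed), and only 2 genes lay closer to Wnk2. Scara3 correlated with Mtcl1 and Wnk2 at 0.98 and 0.97 (0.80 and 0.86 with group means removed). Ly6d stood further off, at 0.95 with Scara3, 0.90 with Mtcl1 and 0.87 with Wnk2, and at 0.65, 0.36 and 0.39 with group means removed. Within the 8 SBR vehicle libraries alone, r was 0.82 for Scara3 and Mtcl1, 0.81 for Wnk2 and Mtcl1 and 0.76 for Scara3 and Wnk2, and 0.44, 0.04 and -0.11 for Ly6d with Scara3, Mtcl1 and Wnk2. Which pair was closest thus depended on the measure.

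The 5 genes most like Ly6d were the adaptor gene Shc2 (r = 0.984), the interferon-inducible gene Ifi27l2b (r = 0.983), Ccdc120 (r = 0.983), Evl, which regulates actin filaments (r = 0.981), and the AP-1 subunit gene Jun (r = 0.981). With WUSTL0717 these 5 differed by -0.49 to -0.13 and none passed the test (limma adjusted p = 0.138 to 0.813). For Scara3 they were the RNA-binding protein gene Bicc1 (r = 0.995), Spp1, which encodes osteopontin (r = 0.995), the cytokine gene Clcf1 (r = 0.993), Sh3bp4 (r = 0.992) and the tetraspanin gene Cd63 (r = 0.992), and all 5 passed the test as lower, by -1.06 to -0.73. For Wnk2 they were the membrane protein gene Palm (r = 0.994), Anks6 (r = 0.988), which encodes a protein of primary cilia, Mtcl1, the transcription factor gene Nfatc2 (r = 0.984) and Zfp651 (r = 0.983). For Mtcl1 they were the protease inhibitor gene Spint1 (r = 0.991), the TGF-beta binding protein gene Ltbp3 (r = 0.989), Vsig10 (r = 0.989), Palm (r = 0.988) and the chemokine gene Cx3cl1 (r = 0.988). All 18 of these genes that are not members rose after SBR, by 0.96 to 3.31, and 13 of the 18 fell with WUSTL0717. They were picked for likeness in the same libraries, so these calls are a description. With group means removed, r ran from 0.756 to 0.825 for the genes like Ly6d, 0.911 to 0.959 for Scara3, 0.873 to 0.951 for Wnk2 (Mtcl1 apart) and 0.859 to 0.925 for Mtcl1.

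Markers of some other liver cells moved with the members. All 10 cholangiocyte markers, among them Krt7, Krt19, Epcam, Sox9 and Spp1, rose after SBR, where 37.5% of all genes did, with a median difference of 1.97, and 7 of the 10 fell with WUSTL0717, where 2.67% of all genes did, with a median of -0.87. Their summed level was 102 to 220 TPM in sham, 480 to 948 TPM in SBR vehicle and 278 to 645 TPM in SBR WUSTL0717 libraries, and no marker of the list was at 0 throughout a group. In treated replicate 4, the treated library in which all 4 members were highest, the sum was 645 TPM. The median r of a member with the 10 markers was 0.96 for Scara3, 0.95 for Wnk2, 0.96 for Mtcl1 and 0.90 for Ly6d, and with group means removed 0.85, 0.70, 0.78 and 0.66, against medians over all genes of 0.51, 0.42, 0.44 and 0.51 before and 0.57, 0.38, 0.42 and 0.44 after that step. Other lists came as close for some members. For Ly6d the stellate and fibroblast markers gave 0.91, and with group means removed the neutrophil markers gave 0.73 and the stress genes 0.69. For Wnk2 with group means removed, the stellate and fibroblast markers gave 0.71.

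**Figure D3:**
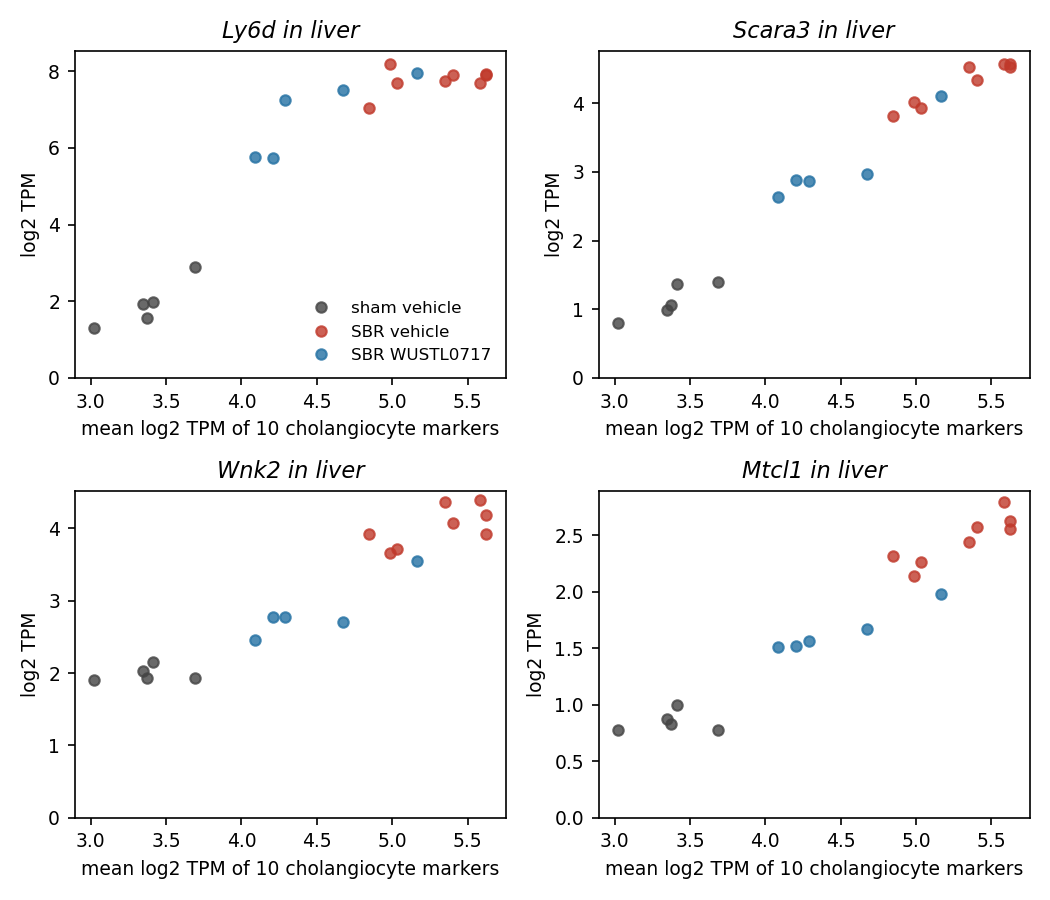
Liver log2 TPM of each gene against the mean log2 TPM of 10 cholangiocyte markers in the same library, with 18 points per panel coloured by group. Marker means run from 3.02 to 3.69 in sham, 4.85 to 5.62 in SBR vehicle and 4.09 to 5.16 in SBR WUSTL0717 libraries; treated replicate 4 has the highest marker mean of its group and lies nearest the SBR vehicle points.

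Of 9 stellate cell and fibroblast markers, 8 rose after SBR (Lrat, Des, Reln, Pdgfrb, Col1a1, Col3a1, Dcn and Lum) and 4 fell with WUSTL0717 (Pdgfrb, Col1a1, Col3a1 and Lum), against the same 37.5% and 2.67% of all genes. Their summed level was 123 to 194 TPM in sham, 371 to 648 TPM in SBR vehicle and 234 to 435 TPM in SBR WUSTL0717 libraries. Of 10 hepatocyte markers, 4 fell after SBR (Cps1, Pck1, Cyp2e1 and Serpina1c), where 712 of 15896 genes did, and 9 with centred libraries, where 4573 did, and none passed the test with WUSTL0717, where 5 had an unadjusted limma p under 0.05 and 6 rose with centred libraries, in a fit where 1824 of 15896 genes rose and 1303 fell. Other lists were short or did not follow. After SBR, 3 of 3 plasmacytoid dendritic cell markers, 2 of 2 neutrophil markers, 2 of 4 T and NK cell markers and 1 of 5 endothelial markers (Lyve1) rose. With centred libraries these counts were 3, 2, 0 and 1, and 2 endothelial markers fell. None of these passed the limma test with WUSTL0717, where Irf8 and Nkg7 had an unadjusted p under 0.05, and with centred libraries 1 plasmacytoid marker fell and 2 endothelial markers rose. Of 7 macrophage markers, Gpnmb rose and Timd4 fell after SBR, and Clec4f and Timd4 rose with WUSTL0717. With centred libraries 1 macrophage marker rose and 4 fell after SBR, and 4 rose with WUSTL0717, in the same fit. The part of these cell types in the member values was not tested, and in bulk samples fewer cells of a type and less RNA per cell cannot be told apart. For Ly6d, which marks B cell progenitors and squamous epithelium elsewhere, 0 of 5 B and plasma cell markers (Cd79a, Cd79b, Jchain, Mzb1 and Ighm) passed the limma test after SBR, 1 (Ighm) had an unadjusted p under 0.05, and 1 passed as lower with centred libraries, with a summed level of 37.7 to 58.8 TPM in sham and 40.8 to 91.3 TPM in SBR vehicle libraries, and the B cell marker Ms4a1 and the squamous markers were not analysed here.

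Relatives of the members are set beside them here. The members were chosen for their differences in these same libraries, so smaller differences in their relatives carry no weight. Of 13 other Ly6 and three-finger genes tested, 8 rose and 3 fell after SBR, where 41.9% of all genes were called. With libraries centred on their median 6 rose and 4 fell, where 7821 of 15896 genes were called. Lynx1, a modulator of nicotinic receptors and the neighbour of Ly6d, rose by 1.77 ± 0.16 (SE; limma adjusted p = 1.18e-07) and fell with WUSTL0717 by 0.75 ± 0.16 (SE; limma adjusted p = 0.0156). The interferon-responsive Ly6e rose by 1.34 and Plaur, the urokinase receptor, by 1.57, and the surface antigens Ly6a by 1.20, Ly6c2 by 0.78 and Ly6c1 by 0.34. Ly6c1 did not pass the test with centred libraries. Lynx1 was the only one of the 13 called with WUSTL0717, where 4.12% of all genes were. Centring gave 3 higher and 2 lower, in a fit that called 3127 of 15896 genes.

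Of 13 other scavenger receptor genes, 5 rose and 1 fell after SBR, near the 37.5% of all genes called higher and 41.9% called in all. With centred libraries 4 rose and 7 fell, where 3248 of 15896 genes rose and 4573 fell. Scarf2 rose by 1.29 ± 0.13 (SE; limma adjusted p = 5.46e-07), the fatty acid receptor Cd36 by 1.18 and the macrophage lysosomal protein Cd68 by 0.99. Among the class A relatives of Scara3, which was itself chosen for its rise, Msr1 rose by 0.39, which centring removed. Marco, Colec12 and Scara5 did not pass the test, at -0.37, -0.06 and -0.29 (limma adjusted p = 0.387, 0.745 and 0.317). With centred libraries, Colec12 and Scara5 passed it as lower. With WUSTL0717, Scarf2 fell by 0.53 (limma adjusted p = 0.0304), and Cd163, a haemoglobin receptor of resident macrophages, rose by 0.91 (limma adjusted p = 0.037).

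Genes of the oxidative and genotoxic stress response, with which Scara3 is linked in background knowledge, were mostly higher after SBR: 13 of 17 rose, against 37.5% of all genes, and 11 with centred libraries, where 1 fell and 3248 of 15896 genes rose overall. The glutathione transferase gene Gsta1 rose by 3.94 ± 0.39 (SE; limma adjusted p = 3.03e-07), the stress transcription factor gene Atf3 by 2.87 and the sulfiredoxin gene Srxn1 by 2.57. None of the 17 passed the test with WUSTL0717, where 4.12% of all genes did. There 3 had an unadjusted limma p under 0.05 (Srxn1, Gadd45a and Atf3) and the list median was -0.04. With centred libraries 1 rose and 1 fell, where 3127 of 15896 genes were called.

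In the WNK pathway, 5 of 15 genes rose after SBR, against 37.5% of all genes. With centred libraries 4 rose and 7 fell, where 3248 of 15896 genes rose and 4573 fell. Stk39, the kinase directly downstream of the WNKs, rose by 0.94 ± 0.14 (SE; limma adjusted p = 2.06e-05), the aldosterone-responsive kinase gene Sgk1 by 1.18, and the potassium-chloride cotransporter gene Slc12a4 by 0.66. Of the paralogs of Wnk2, Wnk1 rose by 0.50 (limma adjusted p = 0.00224), and Wnk4 was at 0.20 (limma adjusted p = 0.387). With WUSTL0717, 1 of the 15 passed the test, Slc12a7, higher by 0.37, where 4.12% of all genes did. With centred libraries 2 rose and 1 fell, where 3127 of 15896 genes were called. Wnk1 and Wnk4 were at -0.06 and -0.35 (limma adjusted p = 0.872 and 0.335).

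Among microtubule and polarity genes, 16 of 22 rose after SBR, against 37.5% of all genes, and 9 rose and 3 fell with centred libraries, where 7821 of 15896 genes were called overall. Soga1, a paralog of Mtcl1, rose by 0.84 ± 0.09 (SE; limma adjusted p = 1.06e-06), Map1s by 0.96 and Mark2 by 0.71. With WUSTL0717, Map1s fell by 0.38 (limma adjusted p = 0.0457), and Soga1 was at -0.22 (limma adjusted p = 0.211).

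The 2 nearest tested genes on each side of a member moved less than it did in liver. The choice of members for large differences favours this, so it carries no weight. The all-gene median difference after SBR was 0.25. Beside Ly6d, Lynx1 and Them6 rose after SBR, by 1.77 and 0.88, while Gml and Gml2 were at 0.21 and 0.19 (limma adjusted p = 0.109 and 0.104). Beside Scara3, the mitotic kinase gene Pbk rose by 1.30 and Clu, which encodes the chaperone clusterin, by 0.48, while Ccdc25 and Gulo were at 0.03 and 0.10. Beside Wnk2, Card19 rose by 0.65, and Fam120a, Ninj1 and Phf2os1 were between -0.03 and 0.25. Beside Mtcl1, Washc1 rose by 0.34, and Ddx11, Rab12 and the pseudogene Gm4705 within it were at 0.20, 0.32 and 0.17 (limma adjusted p = 0.15, 0.0783 and 0.393). Of the 16 neighbours, Lynx1 alone passed the test with WUSTL0717, where 4.12% of all genes did.

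In the intestine, whose libraries had no part in the choice of the genes, none of the 4 passed the test for SBR or WUSTL0717. In duodenum, Ly6d read 6.68, 8.08 and 5.74 in sham, 6.05, 6.52, 2.78 and 2.76 in SBR vehicle, and 4.30, 6.25, 4.21 and 2.66 in SBR WUSTL0717 libraries. Scara3 read 3.07, 3.19 and 4.26 in sham, 3.16, 1.87, 0.59 and 1.54 in SBR vehicle, and 1.96, 0.28, 0.14 and 0.95 in SBR WUSTL0717 libraries. For Ly6d, SBR vehicle replicates 1 and 2 lay within the sham range and replicates 3 and 4 below it, and for Scara3, replicate 1 lay within it and the other 3 below.
Wnk2 read 2.75, 2.34 and 3.85 in sham, 2.99, 1.32, 1.72 and 1.34 in SBR vehicle, and 3.18, 1.51, 1.53 and 2.15 in SBR WUSTL0717 libraries. Mtcl1 read 1.48, 1.37 and 1.97 in sham, 1.94, 0.22, 0.59 and 0.92 in SBR vehicle, and 1.45, 0.47, 0.33 and 0.90 in SBR WUSTL0717 libraries. Replicate 1 was again the highest SBR vehicle library of both genes.

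The duodenal SBR differences were below 0, at -2.31 ± 1.02 (SE) for Ly6d, -1.72 ± 0.58 for Scara3, -1.14 ± 0.54 for Wnk2 and -0.69 ± 0.40 for Mtcl1, against an all-gene median of -0.36. Mtcl1 passed the filter on low values, a mean of 1 log2 TPM, only through its sham libraries and could not be fitted without sham replicate 3 or SBR vehicle replicate 1, so its sign here carries no weight. None passed the test (limma adjusted p = 0.278 to 0.378), in a comparison where limma called 0% of genes, 2426 genes had an unadjusted p under 0.05 and the two-sample test called 1. The 4 pancreas markers had a median difference of -1.78 after SBR and 2.14 with WUSTL0717 in the same libraries. Their summed level was 68.5 to 1021 TPM in sham, 17.6 to 651 TPM in SBR vehicle and 129 to 1152 TPM in SBR WUSTL0717 libraries, and its part in the member values was not tested. Exact two-sided permutation tests of the SBR differences gave p = 0.229, 0.0857, 0.143 and 0.2, where the smallest possible p is 0.0286. Without SBR vehicle replicate 1, 452 genes were called and Scara3 was among them, at -2.17 (limma adjusted p = 0.0498). The WUSTL0717 differences were -0.17, -0.96, 0.25 and -0.13 (limma adjusted p = 1 for each; 0.272% of genes called).

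In ileum, Ly6d read 5.63, 7.03 and 4.70 in sham, 7.37, 9.43, 8.63 and 1.66 in SBR vehicle, and 6.35, 2.02, 6.62 and 3.16 in SBR WUSTL0717 libraries. The SBR vehicle group held both the lowest of the 11 ileal libraries, replicate 4, and the highest, replicate 2. Scara3 read 1.92, 2.17 and 2.98 in sham, 3.37, 3.33, 2.98 and 4.20 in SBR vehicle, and 2.13, 4.44, 3.31 and 2.91 in SBR WUSTL0717 libraries. The SBR vehicle libraries of Scara3 all lay above the sham libraries, but the closest pair differed only in the third decimal.
Wnk2 read 3.23, 3.50 and 3.78 in sham, 3.51, 3.36, 2.85 and 3.74 in SBR vehicle, and 2.72, 3.70, 3.29 and 4.10 in SBR WUSTL0717 libraries. Mtcl1 read 1.29, 1.47 and 2.47 in sham, 2.23, 1.71, 1.33 and 1.65 in SBR vehicle, and 2.01, 2.92, 2.21 and 2.45 in SBR WUSTL0717 libraries. Both genes overlapped between the sham and SBR vehicle groups.

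The ileal SBR differences were 0.99 ± 1.64 (SE) for Ly6d, 1.12 ± 0.49 for Scara3, -0.14 ± 0.34 for Wnk2 and -0.01 ± 0.35 for Mtcl1, and none passed the test (limma adjusted p = 0.56 to 1; 0.349% of genes called). Scara3 came nearest, with an exact two-sided permutation p of 0.0571. The WUSTL0717 differences were -2.23, -0.27, 0.09 and 0.67 (limma adjusted p = 0.77 to 0.986; 0.0698% of genes called), and Mtcl1 gave an exact two-sided permutation p of 0.0857. Over the 16 permutation tests in the intestine, none reached 0.05 before adjustment. The difference between duodenum and ileum in the SBR effect was largest in size for Ly6d, at -3.30 ± 2.09 (SE), and lowest in p for Scara3, at -2.83 ± 0.81 (SE; limma adjusted p = 0.203), and none of the 4 passed.

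Between the regions themselves, over the 22 intestinal libraries, Scara3, Wnk2 and Mtcl1 were lower in duodenum by -0.96, -1.14 and -0.85 (limma adjusted p = 0.0113, 0.000724 and 0.00154), and Ly6d was at -0.46 (limma adjusted p = 0.629). Limma called 71.6% of genes in this comparison (1526 higher and 9870 lower in duodenum, but 3559 and 3780 with centred libraries) and the all-gene median was -0.83, so the 3 values lie at the general shift between regions. With libraries centred on their median they were -0.21, -0.38 and -0.10, and none passed the test.

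**Figure D4:**
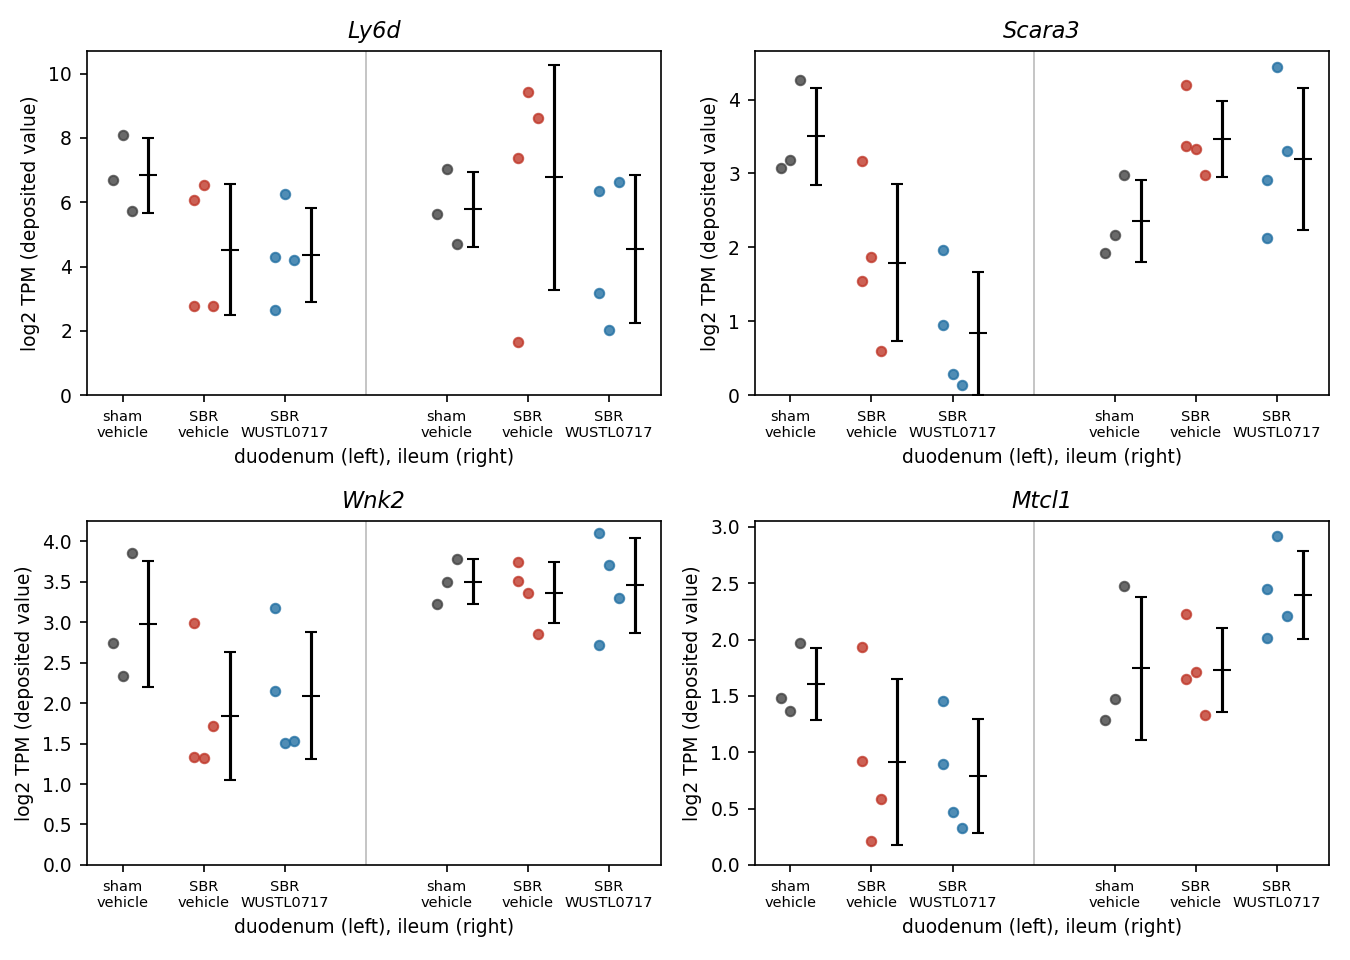
Log2 TPM of the 4 genes in duodenum (left of each panel) and ileum (right), with 3 sham libraries, 4 of SBR on vehicle and 4 of SBR on WUSTL0717 per region and bars for the mean ± SD. Ly6d spreads from 1.66 to 9.43 among the ileal SBR vehicle libraries, and the SBR vehicle and sham libraries overlap for every gene and region except Scara3 in ileum, where the closest pair is level at 2.98.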

How the data were processed

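RNA from liver, duodenum and ileum was sequenced after removal of ribosomal RNA with random-hexamer priming. The authors aligned reads to GRCm38 with STAR, counted genes with featureCounts, and deposited 1 table of log2 TPM values for 15958 genes and 40 libraries after ComBat batch correction. The log2 scale was taken as log2(TPM + 1) and folds are on the TPM + 1 scale; 2752 values lie below 0, down to -1.69, and the depth is not given in the sources used here. Strandedness was not given in the sources used here, so reads of overlapping genes may be shared.

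Genes entered a fit where their log2 TPM averaged 1 or more over its libraries. Limma 3.58.1 (R 4.3.3) fitted the 3 groups of a tissue together, letting the variance follow the mean, and p-values were adjusted by Benjamini-Hochberg over all genes tested, with 0.05 as the threshold. Python 3.11.15 with numpy 2.4.6, pandas 2.3.3, scipy 1.17.1 and matplotlib 3.10.9 did the rest. The fits were tested on simulated data. The members, gene lists and tests were chosen with earlier results of these data known. Named genes were the members, the 5 genes most like each by Pearson r in liver, leaving out predicted genes, the 2 nearest tested neighbours on each side, up to 3 genes of smallest limma p and the members' paralogs from each pathway list (Wnk3 was not analysed here), and called markers from each marker list. Promoters came from RefSeq tables (GRCm38.p6), where 2 of 4 members matched. Alternatives covered filters, pseudocounts of 0.1 and 5, centring, quantile normalization, library weights, the variance trend, the test, the samples fitted, a replicate block and leaving out each library. P-values measure the spread between mice as the labels number them.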

Additional observations from a re-analysis of the deposited data

Results flagged for a closer look

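In 28 groups of 4 to 8 libraries tested for a sample far from the rest, 2 values stood apart, where chance alone flags about 1 in 20 groups. Ly6d was lowest in liver SBR vehicle replicate 2, at 7.05 log2 TPM against 7.68 or more in the other 7 libraries. Without that library the SBR difference of Ly6d was 5.94 and the WUSTL0717 difference -1.03 (limma adjusted p = 0.0876). Scara3 was highest in liver SBR WUSTL0717 replicate 4, at 4.11 log2 TPM against 2.97 or less in the other 4 libraries.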

How the results depend on the processing

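Of the values of the members under alternatives that kept every library, 312 kept their size or their direction and side of the threshold, 6 untested ones moved in size but not in sign, 5 came past the threshold, 7 lost it and 4 turned direction. With a library left out, 334 were kept, 2 came past the threshold and 13 turned. With a pseudocount of 5 the SBR differences in liver were 4.80 for Ly6d and 1.93 for Scara3 and the WUSTL0717 differences -0.85 for Wnk2 and -0.42 for Mtcl1; with 0.1, Scara3 was at 3.88 and Mtcl1 at -1.05. The liver WUSTL0717 difference of Ly6d passed the threshold when centred (-0.92, limma adjusted p = 0.0389), with quantile normalization (-1.01, 0.0322) and with library weights (-0.86, 0.0429), and ran from -1.20 to -0.65 over left-out libraries. That of Scara3 was lost in the two-sample test (-1.19, adjusted p = 0.0982). In duodenum, library weights brought the SBR differences of Ly6d (-3.20) and Scara3 (-1.68) past the threshold, and Scara3 ran from -2.17 to -1.32 over left-out libraries. Between regions, centring gave 0.30 for Ly6d, turning its direction, and -0.21, -0.38 and -0.10 for Scara3, Wnk2 and Mtcl1; quantile normalization gave -0.30, -0.41 and -0.30 for the latter. The remaining changes of direction were among uncalled intestinal values. With WUSTL0717 in duodenum, Ly6d was at 0.0542 with weights and ran from -0.80 to 0.49 over left-out libraries, Wnk2 from -0.11 to 0.63 and Mtcl1 from -0.36 to 0.0259. In ileum after SBR, Wnk2 ran from -0.28 to 0.0341 and Mtcl1 from -0.24 to 0.35, and Mtcl1 was at 0.00742 with a pseudocount of 0.1 and 0.22 with weights. With WUSTL0717 in ileum, Scara3 ran from -0.69 to 0.0826 and Wnk2 from -0.13 to 0.33. The cause was not tested.

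Counts of called genes moved by over 1.5 times as follows. In liver, SBR gave 4180 with a filter at 3 (fewer genes tested) and 10458 with weights. Liver WUSTL0717 gave 334 with that filter, 3127 centred, 2634 with quantile normalization, 2812 with weights, 191 with the compared groups alone, 0 in the two-sample test, and 410 without vehicle replicate 1 and 174, 119, 99 and 1067 without treated replicates 1, 2, 3 and 4. WUSTL0717 against sham gave 8381 with weights, 2689 without sham replicate 2 and 2444 without treated replicate 4. Duodenal SBR gave 9 with the filter at 3, 96 centred, 55 with quantile normalization, 5 without the trend, 2579 with weights, 1 in the two-sample test and 452 without vehicle replicate 1. Duodenal WUSTL0717 gave 17 with quantile normalization, 98 with weights, 2 in the two-sample test, 27 with the groups alone and 10 to 37 over left-out libraries. Ileal SBR gave 92 with quantile normalization, 276 with weights, 5 in the two-sample test and 5 to 39 over left-out libraries, and ileal WUSTL0717 19, 1 and 1 with weights, the two-sample test and the groups alone and 2 to 14 over left-out libraries. The region comparison gave 5959 with the filter and 7339 centred.

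Same-numbered libraries did not all deviate together (r from -0.20 to 0.17 in liver, -0.29 to 0.32 in duodenum, -0.32 to 0.24 in ileum and -0.14 to 0.45 between regions), so a pairing was not shown. Some same-numbered duodenum and ileum libraries did, and the region test treats them as independent; with the block it gave limma adjusted p = 0.0148, 0.00157 and 0.000975 for Scara3, Wnk2 and Mtcl1. With the replicate block, Scara3 with WUSTL0717 in liver was at -1.14 (limma adjusted p = 0.00779) and Ly6d at -0.81 (0.129), and the counts were 5585, 487 and 6072 in liver, 0 and 20 in duodenum, 13 and 1 in ileum and 11680 between regions. With the depth unknown, no counting error can be given for the low values.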
